A study of Mus musculus with 6 samples.

Results

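Collagen genes were taken as the protein-coding genes of the mouse RefSeq annotation (GRCm38) whose symbol is Col, a number, the letter a and a number. There were 44 of them among 21887 protein-coding genes. Joining the overlapping peaks (1 bp or more in common) of all 6 ATAC-seq libraries gave 89410 merged regions, and 464 of these regions overlapped the span of a collagen gene extended by 20 kb at either end. The 44 genes divided into 11 fibrillar collagens with 111 regions, 9 network-forming collagens with 83 regions and 24 other collagens with 270 regions.

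Collagens are the main structural proteins of the extracellular matrix and are wound from alpha chains into a helix. Fibrillar collagens assemble into fibrils, and type I collagen, made of the chains of Col1a1 and Col1a2, is the chief protein of bone matrix laid down by osteoblasts. Network-forming collagens build sheets such as the type IV collagen of basement membranes. The others include the beaded filaments of type VI, the anchoring fibrils of type VII, collagens that decorate the surface of fibrils and collagens that span the cell membrane.

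ATAC-seq marks accessible chromatin by the insertion of adapters with the transposase Tn5. There were 3 libraries of OB Fam20c f/f, an immortalized mouse osteoblast line whose Fam20c alleles carry loxP sites, labelled as control. Another 3 libraries came from OB Fam20c KO, cells made from the same line with a lentivirus that carries Cre recombinase, labelled as Fam20c knockout and as Fam20c-deficient. Fam20c encodes a kinase that phosphorylates secreted proteins. Each library was made from 50000 nuclei transposed for 30 min at 37 °C, and no label or method says that replicates came from separate cultures or that the knockout cells are 1 clone. The tests below therefore measure the spread between these libraries, which may be technical, and Cre infection and the loss of Fam20c cannot be told apart.

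The lists held 62781 to 74797 peaks in the f/f libraries and 64141 and 64582 in KO replicates 1 and 2. KO replicate 3 stood apart with 32958 peaks, so results are also given without it. The lists do not carry the read depth, and the alignment totals that the study tabulates were not used here, so depth is unknown from these files. A missing peak means only that none passed the authors' threshold in that library. A peak within 1 kb of the start site, or of either gene end where no start site was at hand, was found in all 6 libraries at 6 of 9 osteoblast markers (Runx2, Sp7, Spp1, Dlx5, Sparc and Postn), in 5 libraries at Alpl, and in none at Bglap and Ibsp. Of the chondrocyte markers, Sox9 and Comp had such a peak in all 6 libraries and Acan and Matn1 had none. The adipocyte and epithelial markers had none in any library. Among the blood markers Spi1 had one in 6 libraries, and Ptprc and Cd3e in none. Of the endothelial markers, Tek had one in the 3 f/f libraries and in no KO library, Cdh5 in 2 libraries and Pecam1 in none. Myod1 of skeletal muscle had one in 4 libraries and Snap25 of neurons in 6, while Myog and Rbfox3 had none. Sp7, Dlx5, Sox9, Comp, Spi1, Cdh5, Pecam1, Myod1, Snap25 and the epithelial marker Cdh1 were read at either gene end. Fam20c itself had one in all 6 libraries, and a peak at its start site does not check the deletion. The part of other cell types in the results was not tested.

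The first question was whether collagen regions were gained or lost between the groups. Of the 464 regions, 65.9%, 67.2% and 80.6% held a peak in f/f replicates 1, 2 and 3, and 71.1%, 73.7% and 34.5% did in the KO replicates. The groups overlapped, because KO replicate 3 had the lowest share and f/f replicate 3 the highest. The mean was 71.3% ± 8.11 (SD, n = 3) in f/f and 59.8% ± 21.9 (SD, n = 3) in KO, a difference of -11.5 percentage points (exact permutation test over libraries, two-sided, p = 0.6). Without KO replicate 3 the difference was 1.16 points (p = 1 by the same exact test over 10 assignments). Accessibility in fewer cells and weaker accessibility in each cell cannot be told apart in such bulk libraries. With 3 libraries against 3 this test cannot give a p below 0.1.

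The share among all 89410 regions gives the background of each library. The collagen share minus this background was -3.02, -1.60 and -2.1 points in the f/f libraries. It was 1.5 and 2.80 points in KO replicates 1 and 2 and -1.28 points in KO replicate 3. The 3 KO values lay above the 3 f/f values. The difference of 3.25 points was thus the largest of the 20 assignments, at the smallest p that this design allows (exact permutation test, two-sided, p = 0.1), which does not pass 0.05. It was 4.43 points without KO replicate 3 (p = 0.1, the smallest for 3 against 2 libraries by the exact test). It shrank to 0.664 points when peaks below a −log10 q of 5 were dropped (p = 0.8 by the exact permutation test), to 1.61 points with lists of equal length (p = 0.3) and to 2.03 points with an extension of 3 kb (p = 0.4), and the groups then overlapped.

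By class, the fibrillar collagens had the highest share in every library except KO replicate 2. Fibrillar collagen regions had a peak in 68.5%, 73.9% and 86.5% of cases in f/f and in 76.6%, 78.4% and 38.7% in KO. Network collagen regions gave 63.9%, 61.4% and 80.7% in f/f against 74.7%, 79.5% and 33.7% in KO. The other collagens gave 65.6%, 66.3% and 78.1% in f/f against 67.8%, 70.0% and 33.0% in KO. In every library the fibrillar share was above that of the other collagens, by 2.91 to 8.80 points.

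Fibrillar minus other was 6.28 ± 2.94 points in f/f and 7.65 ± 1.64 points in KO (SD, n = 3 each), and the difference of 1.37 points was within the spread (exact permutation test, two-sided, p = 0.5). Network minus other was -1.33 ± 3.73 points in f/f and 5.74 ± 4.49 points in KO (SD, n = 3 each). That difference of 7.06 points also did not pass (exact permutation test, two-sided, p = 0.2). Both differences were -2.32 points when the same number of peaks was taken from each library.

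**Figure D1:**
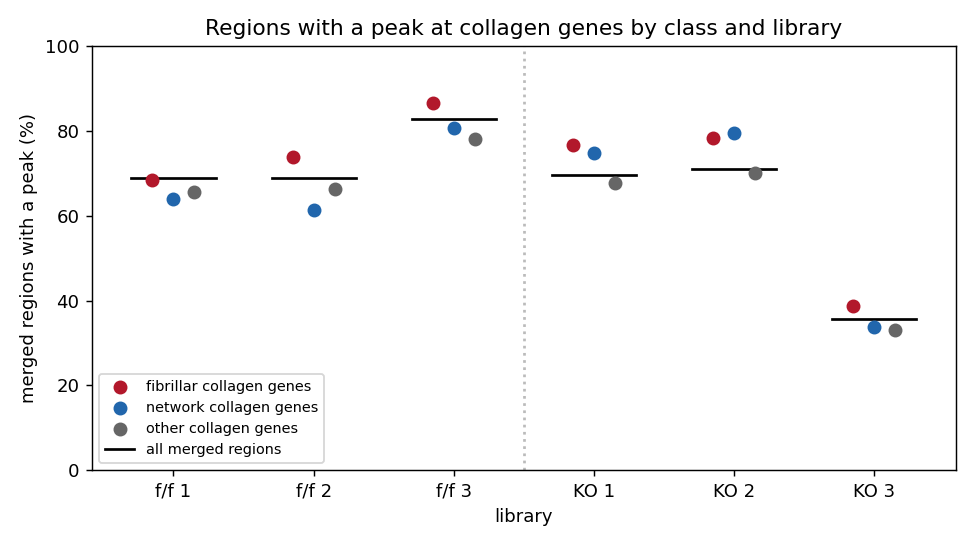
Share of merged regions with a peak (%, y axis) in each library (x axis) for fibrillar (111 regions), network (83) and other (270) collagen genes. Each point is 1 library and the black lines give the share over all 89410 regions. Fibrillar points lie above the other collagens in all 6 libraries, and all points drop in KO replicate 3.

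About as many collagen regions as regions in general were shared by all libraries. A peak in all 6 was found in 152 of 464 regions (32.8%), against 33.4% of all regions. A further 90 (19.4%) had a peak in every library except KO replicate 3, against 19.2% of all regions. By class, 37.8% of fibrillar, 31.3% of network and 31.1% of other collagen regions were in all 6. Another 96 regions (20.7%) had a peak in 1 library alone, against 19.8% of all regions.

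The genes differed widely in the number of regions. The median was 8.72 regions per 100 kb of span and flanks for collagen genes, with 11.9 for fibrillar, 4.01 for network and 7.60 for other collagens. Over all protein-coding genes it was 5.95. Of the 464 regions, 332 (71.6%) touched a collagen gene span and 132 lay only in a flank. Another protein-coding gene held 47 regions, and 25 lay within 1 kb of an end of such a gene, so that they may belong to a neighbour. The collagen region ranked highest by the authors' −log10 q was among these, at Tmem106c in the flank of Col2a1 (chr15:97963452-97964884), with a fold over local background between 10.6 and 18.0 in the 6 libraries.

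Among fibrillar collagens, Col5a1, whose type V collagen sets the width of type I fibrils, had the most regions (27). Col27a1, a minor fibrillar collagen, had 17 and Col1a1 had 13. Col1a1 was the densest of all, with 22.9 regions per 100 kb. Among network collagens, Col4a2 had 20 regions, Col8a1 16, and Col4a1 and Col4a6 14 each. Among the others, Col14a1, which binds to the surface of fibrils, had 34, Col23a1, a membrane collagen, had 28, and Col26a1 had 23. Col10a1, the collagen of hypertrophic cartilage, had no region within 20 kb in any library. Col11a1 and Col4a5 had 1 region each, the first in all 6 libraries and the second in f/f replicate 3 and KO replicate 2.

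**Figure D2:**
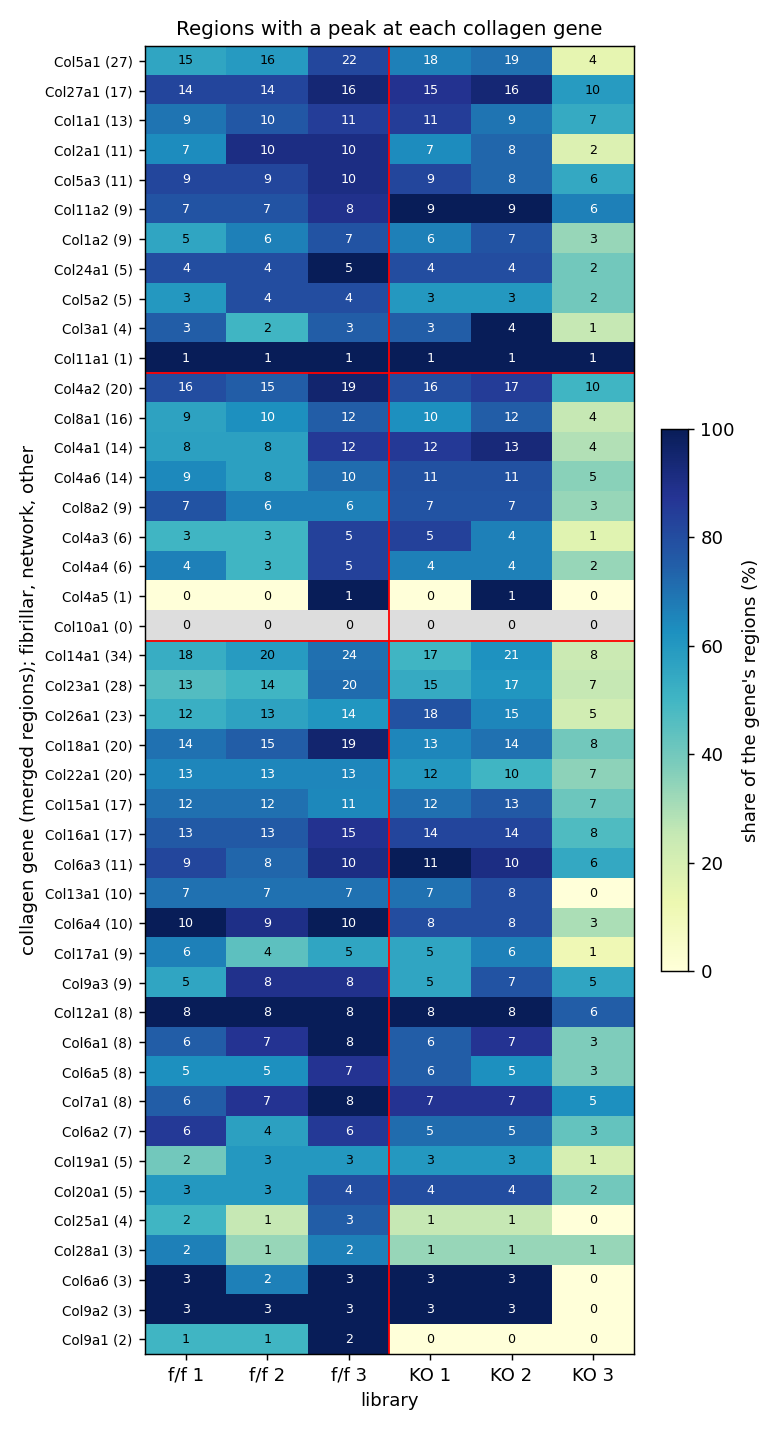
Number of regions with a peak (printed) and their share of each gene's merged regions (colour, %) for the 44 collagen genes (rows, with the merged regions in brackets) in the 6 libraries (columns). Red lines separate the groups and the fibrillar, network and other classes. Col12a1 had a peak at all 8 of its regions in 5 libraries, and Col13a1, Col9a2, Col6a6, Col25a1, Col9a1 and Col4a5 had regions but no peak in KO replicate 3. Col10a1 (grey) had no region.

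Few genes had counts that did not overlap between the groups. Col9a1, a collagen of cartilage fibrils, had 1, 1 and 2 regions with a peak in f/f and 0 in each KO library. Col6a4, a type VI chain, had 10, 9 and 10 in f/f and 8, 8 and 3 in KO. Col22a1, a collagen of tissue junctions, had 13 in each f/f library and 12, 10 and 7 in KO. These 3 of 43 genes with regions (6.98%) had more in every f/f than in any KO library, against 9.94% of all protein-coding genes with regions. In the opposite direction there were 0 of 43, against 0.121% of all such genes.

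Without KO replicate 3, the same count of 3 of 43 genes stood higher in f/f, against 10.0% of all genes. Another 3 of 43 (6.98%) then stood higher in KO, against 4.43%. These were Col26a1 with 12, 13 and 14 regions in f/f against 18 and 15 in KO, Col11a2 with 7, 7 and 8 against 9 and 9, and Col4a6 with 9, 8 and 10 against 11 and 11. With so few genes in each direction, the shares lie near the background.

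At Col1a1, Col1a2, Col3a1, Col5a2 and Col2a1, fibrillar collagens of bone, tendon or cartilage, the counts overlapped. Col1a1 had 9, 10 and 11 regions with a peak in f/f and 11, 9 and 7 in KO, and 7 of its 13 regions were in all 6 libraries. Col1a2 had 5, 6 and 7 against 6, 7 and 3. Col3a1, the type III chain of extensible tissues, had 3, 2 and 3 against 3, 4 and 1, and Col5a2 had 3, 4 and 4 against 3, 3 and 2. Col2a1, the type II chain of cartilage, had 7, 10 and 10 against 7, 8 and 2.

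The strongest region at Col1a1 that lay outside every other protein-coding gene was in its flank at chr11:94957655-94958907. It had folds over local background of 12.9, 10.9 and 11.4 in f/f and 15.4, 14.1 and 11.1 in KO. When the peaks of each library were ranked by −log10 q, with 100 as the highest, this region stood at 94.9 or above in all 6 lists. Its fold did not pass the test between the groups (log2 difference 0.15, adjusted p = 0.441 by limma).

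Regions found in all libraries of 1 group and none of the other were few at collagen genes. Of the merged collagen regions, 10 of 464 regions (2.16%) had a peak in 3 of 3 f/f and 0 of 3 KO libraries, against 3.75% of all regions. In the opposite direction there was 1 of 464 (0.216%), against 0.179% of all regions. Without KO replicate 3, 10 of 460 regions (2.17%) were only in f/f, against 3.82%, and 15 of 460 (3.26%) were only in KO, against 2.93%. The f/f-only count was 24 without f/f replicate 1 (5.29%, against 6.13% of all regions), 19 without f/f replicate 2 (4.18%, against 6.09%) and 19 without KO replicate 2 (4.29%, against 6.01%). The KO-only count was 2 without f/f replicate 3 (0.458%, against 0.388% of all regions). These shares are descriptions and were not tested.

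Of the f/f-only regions, 1 lay at a fibrillar gene, 2 at network genes and 7 at the others. The fibrillar one was in the flank of Col1a1 at chr11:94917478-94918071, with folds of 3.58, 2.91 and 3.38 in f/f. It stood at 50.9, 48.4 and 56.3 in the f/f lists by −log10 q, the highest of the 10. The network ones lay in Col4a4 (chr1:82476121-82476758, folds 3.64, 3.28 and 5.38) and in Col4a3 (chr1:82641433-82641900, folds 5.33, 4.28 and 5.09). Col4a3 and Col4a4 encode chains of the basement membrane of the kidney glomerulus. All but the Col1a1 region stood in the lower part of the f/f lists, at 41.0 or below in each list.

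Of the other collagens, Col23a1 held 2 f/f-only regions (chr11:51534253-51534762 and chr11:51582713-51583083). The first had folds of 5.98, 2.98 and 4.32, and the second had 2.55, 2.28 and 2.41. Col14a1 (chr15:55492779-55493670) had folds of 3.33, 3.41 and 3.77. Col18a1, from which endostatin is cleaved, had the weakest of these peaks, with folds of 2.34, 2.1 and 1.97 at chr10:77084448-77084860. The remaining 3 lay inside Col9a1 and in the flank of Col19a1 (chr1:24248937-24249451, folds 4.61, 4.71 and 4.81), in the flank of Col6a4 (chr9:105988048-105988428, 5.09, 2.57 and 4.81) and in the flank of Col13a1 (chr10:61830758-61831393, 5.33, 3.28 and 6.37).

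The KO-only region lay in the flank of Col4a6, a basement membrane chain, inside the gene Atg4a at chrX:141151722-141152250. Its folds were 2.53, 2.27 and 3.49 in KO. A further 14 regions (3.02%) were shared by KO replicates 1 and 2 and by no other library, near the 2.72% of all regions. They fell to Col5a1 (2 regions), Col1a2, Col27a1 and Col11a2 of the fibrillar class, to Col4a6 (2 regions, both in Atg4a), Col4a1 and Col4a2 of the network class, and to Col19a1, Col6a3, Col15a1, Col13a1 and Col14a1. The one with the highest standing was in the flank of Col1a2 (chr6:4561155-4561867), with folds of 5.94 and 6.85 and a standing of 33.0 and 39.4.

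Peak strength was compared at the 152 collagen regions with a peak in all 6 libraries. The value is the authors' fold over local background, on a log2 scale after quantile normalisation, fitted with limma over all 29849 such regions. The fold depends on the depth and background of each library, so these are differences in enrichment and not in read counts. Of the 152 regions, 2 (1.32%) were higher in KO at an adjusted p under 0.05, against 1.80% of all fitted regions, and 3 (1.97%) were lower, against 1.49%. The median log2 difference was -0.003 over collagen regions and 0.010 over all. It was 0.09 for the 42 fibrillar, -0.05 for the 26 network and -0.02 for the 84 other collagen regions, and 1, 0 and 4 of them passed.

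The region with the largest increase lay inside Col27a1 (chr4:63302319-63303217). Its folds were 4.86, 2.37 and 2.99 in f/f and 7.34, 8.31 and 4.69 in KO. Before normalisation, f/f replicate 1 lay above KO replicate 3, so that the groups overlapped. The log2 difference, KO minus f/f, was 1.03 (SE 0.20, adjusted p = 0.0257 by limma).

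The other increase was inside Col12a1, which binds to fibrils in dense tissue (chr9:79608138-79609079). Folds were 3.26, 3.41 and 3.78 in f/f and 7.06, 6.69 and 3.84 in KO. All KO values lay above the f/f values, KO replicate 3 only just. The log2 difference was 0.69 (SE 0.14, adjusted p = 0.0320 by limma).

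The decreases were at Col6a4, Col14a1 and Col22a1. The region in Col6a4 (chr9:106053309-106054053) had folds of 13.2, 9.24 and 12.1 in f/f and 7.75, 9.23 and 5.34 in KO, and the log2 difference was -0.62 (SE 0.13, adjusted p = 0.0317 by limma). The region in Col14a1 (chr15:55333377-55334530) had folds of 7.98, 6.56 and 9.42 in f/f and 6.08, 5.32 and 2.48 in KO, a difference of -0.97 (SE 0.23, adjusted p = 0.0468 by limma). The region in Col22a1 (chr15:72050930-72052042) had folds of 12.7, 7.88 and 13.2 in f/f and 7.48, 7.74 and 2.64 in KO, a difference of -1.17 (SE 0.27, adjusted p = 0.0461 by limma). At each of the 3 regions every KO fold lay below every f/f fold, and KO replicate 3 had the lowest. The number of collagen regions past the threshold fell to 0 when any 1 of the f/f libraries was left out, and it was 2 without KO replicate 2.

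**Figure D3:**
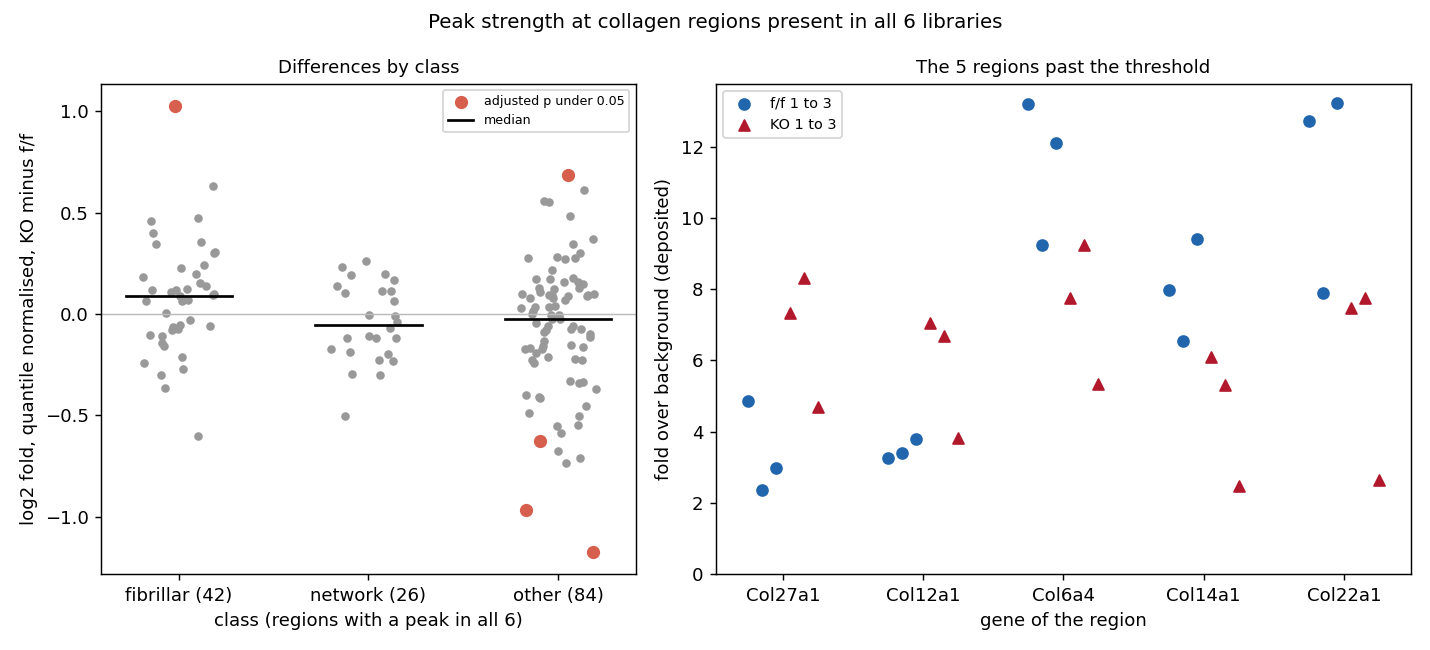
Left, log2 difference in quantile normalised fold over background, KO minus f/f (y axis), at collagen regions with a peak in all 6 libraries, by class (x axis, number of regions in brackets), with medians as black lines and the 5 regions past an adjusted p of 0.05 in red. Right, the deposited fold over local background (y axis) of those 5 regions in each library, f/f as circles and KO as triangles. The Col12a1 points are higher in KO, as are those of Col27a1 apart from f/f replicate 1 against KO replicate 3, and those of Col6a4, Col14a1 and Col22a1 are lower.

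Without KO replicate 3, 242 collagen regions could be fitted. Of these, 26 (10.7%) passed the threshold, against 11.5% of all fitted regions, 12 of them higher and 14 lower in KO. The 5 regions above were among them in the same direction. The fibrillar class had 5 higher and 4 lower, the network class 0 and 1, and the others 7 and 9.

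Regions of opposite direction stood at the same gene in this comparison. In Col27a1, 3 regions were higher in KO, with log2 differences of 0.46 to 1.15, and 1 was lower (-0.67, adjusted p = 0.0255 by limma). In Col12a1, 1 was higher by 0.88 and another was lower (-0.91, adjusted p = 0.00117 by limma, chr9:79632833-79633701). In Col5a1, the start region was higher (0.60, adjusted p = 0.0368 by limma) and a region inside the gene was lower (-0.56, adjusted p = 0.0437 by limma). Both Col26a1 regions that passed were higher, at 0.52 and 0.59. Another 3 regions were named after their values were seen. A region in Col5a3 was lower (-0.93, adjusted p = 0.000927 by limma), 1 in Col17a1 was higher (0.91, adjusted p = 0.00135) and 1 in the flank of Col6a2 was higher (0.99, adjusted p = 0.000883).

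At start sites, collagen genes were split. The RefSeq promoter table gave a start site for 35 of the 44 genes. For Col1a1, Col2a1, Col5a2, Col4a3, Col9a3, Col12a1, Col14a1, Col22a1 and Col26a1 it gave none, and a peak within 1 kb of either end of the gene span was counted. A peak was present in all 6 libraries at 20 of 44 genes (45.5%) and in no library at another 20. For the 35 genes with a known start the numbers were 17 (48.6%) and 15 (42.9%), against 53.6% and 38.1% of the 17492 protein-coding genes with a known start.

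The classes differed in this count. Among fibrillar genes 8 of 11 had the peak in all 6 libraries, among network genes 3 of 9 and among the others 9 of 24. With known starts only, it was 6 of 8, 3 of 8 and 8 of 19. Per library, 24, 22 and 23 collagen genes had a start-site peak in f/f and 23, 23 and 20 in KO, a difference of -1 (exact permutation test, two-sided, p = 0.7). The number was 23 in both KO libraries without replicate 3, and the difference of means was then 0. With lists of equal length, the count was instead 3.33 genes higher in KO (exact permutation test, p = 0.1, the smallest possible).

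Upstream sequences do not cover the highest start-site folds, those of Col6a2, and are shown for 5 example genes. They are Col5a1 and Col1a2, whose start-site peaks stood high in all lists, Col7a1, which had a peak in all libraries with folds that overlapped between the groups, Col3a1, whose peak was missing from f/f replicate 2 and KO replicate 3, and Col10a1, which had no peak. Sequences are from the RefSeq promoter table (GRCm38.p6), 5′ to 3′ on the strand of the gene, which is the plus strand for all 5. They hold the 250 bases before the start site, and at Col5a1 the first 206 of these, since the last bases lie inside the annotated gene span. Capitals mark the GC box GGGCGG, the CCAAT box and the TATA box TATAAA on either strand. On the opposite strand the first reads CCGCCC and the CCAAT box reads ATTGG, and no 2 matches overlap in these sequences.
Col5a1, chr2:27886175-27886380: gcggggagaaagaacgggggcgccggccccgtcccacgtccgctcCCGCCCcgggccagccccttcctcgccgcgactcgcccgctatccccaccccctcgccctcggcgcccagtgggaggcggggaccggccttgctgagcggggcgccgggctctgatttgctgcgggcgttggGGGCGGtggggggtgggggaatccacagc
Col1a2, chr6:4505368-4505617: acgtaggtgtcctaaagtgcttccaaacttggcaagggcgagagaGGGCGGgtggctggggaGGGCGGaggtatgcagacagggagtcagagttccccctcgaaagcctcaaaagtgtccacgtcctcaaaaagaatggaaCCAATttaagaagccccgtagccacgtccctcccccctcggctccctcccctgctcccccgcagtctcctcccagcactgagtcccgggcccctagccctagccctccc
Col3a1, chr1:45311288-45311537: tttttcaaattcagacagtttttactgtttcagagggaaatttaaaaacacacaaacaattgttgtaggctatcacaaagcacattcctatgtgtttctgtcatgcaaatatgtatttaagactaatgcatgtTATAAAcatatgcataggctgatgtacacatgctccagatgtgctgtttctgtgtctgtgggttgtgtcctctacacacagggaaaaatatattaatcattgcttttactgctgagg
Col7a1, chr9:108953336-108953585: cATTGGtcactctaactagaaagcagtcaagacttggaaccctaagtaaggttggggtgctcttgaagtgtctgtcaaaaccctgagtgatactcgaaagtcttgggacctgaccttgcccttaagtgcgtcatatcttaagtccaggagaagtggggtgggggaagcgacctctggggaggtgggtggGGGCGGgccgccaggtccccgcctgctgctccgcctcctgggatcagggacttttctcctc
Col10a1, chr10:34389731-34389980: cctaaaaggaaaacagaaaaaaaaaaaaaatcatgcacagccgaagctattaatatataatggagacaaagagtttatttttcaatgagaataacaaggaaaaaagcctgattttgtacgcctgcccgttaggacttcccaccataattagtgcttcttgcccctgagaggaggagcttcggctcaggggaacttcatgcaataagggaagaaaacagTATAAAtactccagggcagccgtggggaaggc

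The 5 windows differed in base composition. Over the 250 bases, GC was 76.4% at Col5a1 with 28 CpG, 62.0% at Col1a2 with 11 and 56.4% at Col7a1 with 7. It was 35.2% at Col3a1 with 0 CpG and 41.6% at Col10a1 with 5. Col5a1 and Col1a2 each held 2 matches to GGGCGG, the box bound by Sp1-like factors, and Col7a1 held 1. Col3a1 and Col10a1 held none and each had 1 TATAAA, whose first base was at -117 and -32 from the start. These 5 windows do not stand for all collagen genes. Col4a1, Col6a1, Col6a3 and Col15a1 had a peak in all 6 libraries and no match to GGGCGG. Col8a2 held 4 matches, with a GC of 70%, and had no peak.

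The 35 genes with an entry had 38 windows, because 3 genes had more than 1 start. The GGGCGG box was in 22 of 38 windows (57.9%), against 32.7% of the 32851 windows of all genes in the table. Those windows belong to 27025 genes and were not limited to protein-coding genes, whereas all collagen windows are of protein-coding genes. Each comparison with all windows, here and below, is therefore with a mixed set, and a protein-coding background was not tested. It was in 14 of 18 windows of genes with a peak in all 6 libraries (77.8%) and in 7 of 17 of genes with none (41.2%). The median number of CpG was 12.5 in the first set and 5 in the second, and the median GC was 61.4% and 56.0%, against 6 CpG and 52.4% over all windows.

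CCAAT was in 34.2% of collagen windows and in 33.8% of all. TATAAA was in 13.2% and 12.4%. The AP-1 site TGANTCA was in 1 of 38 (2.63%) and in 6.75% of all, and the E-box CAGCTG was in 15.8% and 13%. The Runx core TGTGGT was in 7.89% and 14%, and the TEAD core GGAATG was in 10.5% and 12.6%. Both strands were searched for each motif, and these matches describe the letters and not bound sites.

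At fibrillar genes, the start-site peak of Col5a1 had folds of 4.03, 4.26 and 4.01 in f/f and 6.64, 6.86 and 5.35 in KO, every KO above every f/f value. The log2 difference of 0.63 did not pass over all 6 libraries (SE 0.19, adjusted p = 0.0950 by limma). At Col1a2 the folds were 5.88, 4.86 and 5.36 in f/f and 7.84, 7.40 and 6.71 in KO, again without overlap, and the difference of 0.47 did not pass (adjusted p = 0.188 by limma). Col11a1, whose type XI chain is known from cartilage, had folds of 7.69, 5.87 and 6.46 against 7.93, 8.03 and 7.15.

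At Col1a1, the peak at the lower-coordinate end of its span had folds of 6.40, 4.97 and 4.91 in f/f and 4.93, 5.60 and 4.04 in KO, which overlapped, and the log2 difference was -0.10 (adjusted p = 0.752 by limma). At Col5a2 the peak at the higher-coordinate end had folds of 14.7, 10.1 and 12.4 against 16.0, 15.3 and 9.89. The Col2a1 peak, in 5 libraries, was at the lower-coordinate end, and no library had a peak at the other end. Which end of Col2a1 is its start was not known from the tables used. Among the 8 fibrillar genes with a known start, Col24a1 had no start-site peak in any library.

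The start site of Col3a1 had a peak in 4 libraries, with folds of 3.81 and 4.12 in f/f replicates 1 and 3 and 4.91 and 7.07 in KO replicates 1 and 2. The standing of these peaks was 11.8 to 52.1. A second region inside the gene (chr1:45313632-45314504) had a peak in every library except KO replicate 3, with folds of 5.33 to 8.06.

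Col4a1 and Col4a2, the widely used chains of basement membranes, are transcribed away from each other from adjacent starts and shared 1 start-site peak. Its folds were 5.82, 7.13 and 8.82 in f/f and 8.39, 9.22 and 3.85 in KO. The groups overlapped, with KO replicate 3 the lowest and KO replicate 2 the highest. The other network gene with a start-site peak in all libraries was Col8a1, with folds of 6.25 to 7.07 in f/f and 6.07 to 8.45 in KO. Col4a3, Col4a4, Col4a5, Col4a6, Col8a2 and Col10a1 had none in any library.

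Of the other collagens, Col6a1, Col6a2 and Col6a3, the chains of the common type VI filament, had a start-site peak in all 6 libraries. Col6a2 had the strongest, with folds of 17.6, 11.1 and 14.1 in f/f and 17.9, 16.8 and 11.5 in KO. Col6a4 had folds of 14.3, 10.5 and 13.4 in f/f and 16.4 and 13.1 in KO replicates 1 and 2, with no peak in replicate 3. Col23a1 had folds of 10.2, 9.79 and 10.9 in f/f and 8.37, 9.26 and 4.51 in KO, every KO below every f/f value, and the log2 difference of -0.50 did not pass (adjusted p = 0.0551 by limma). Col7a1 had folds of 6.45, 5.60 and 5.82 against 4.90, 5.83 and 4.38, which overlapped. At Col13a1, a region centred at -1409 bp from the start had a peak in every library except KO replicate 3, with folds of 8.63, 6.99 and 9.48 in f/f and 7.75 and 5.81 in KO. The peak of f/f replicate 1 alone reached within 1 kb of the start and was counted.

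The standing of the start-site peak in its own list was compared over genes with a peak in all 6 libraries. The percentile was lower in every KO than in every f/f library at 4 of 20 collagen genes, Col1a1, Col23a1, Col6a5 and Col7a1, against 21.8% of all genes. It was higher in every KO library at 0 of 20, against 6.28%. Without KO replicate 3 the same 4 genes of 22 (18.2%) were lower, against 22.7%. Then 7 of 22 (31.8%) were higher, against 25.9%, namely Col1a2, Col5a1, Col5a3, Col11a1, Col6a1, Col15a1 and Col16a1. These counts follow the background. A percentile moves with the length of the list, which ran from 32958 to 74797 peaks, so it gives no change at a gene. At Col1a1, Col6a5 and Col7a1 the folds themselves overlapped. Those of Col6a5 were 11.9, 8.71 and 11.6 in f/f and 9.19, 10.9 and 4.70 in KO.

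**Figure D4:**
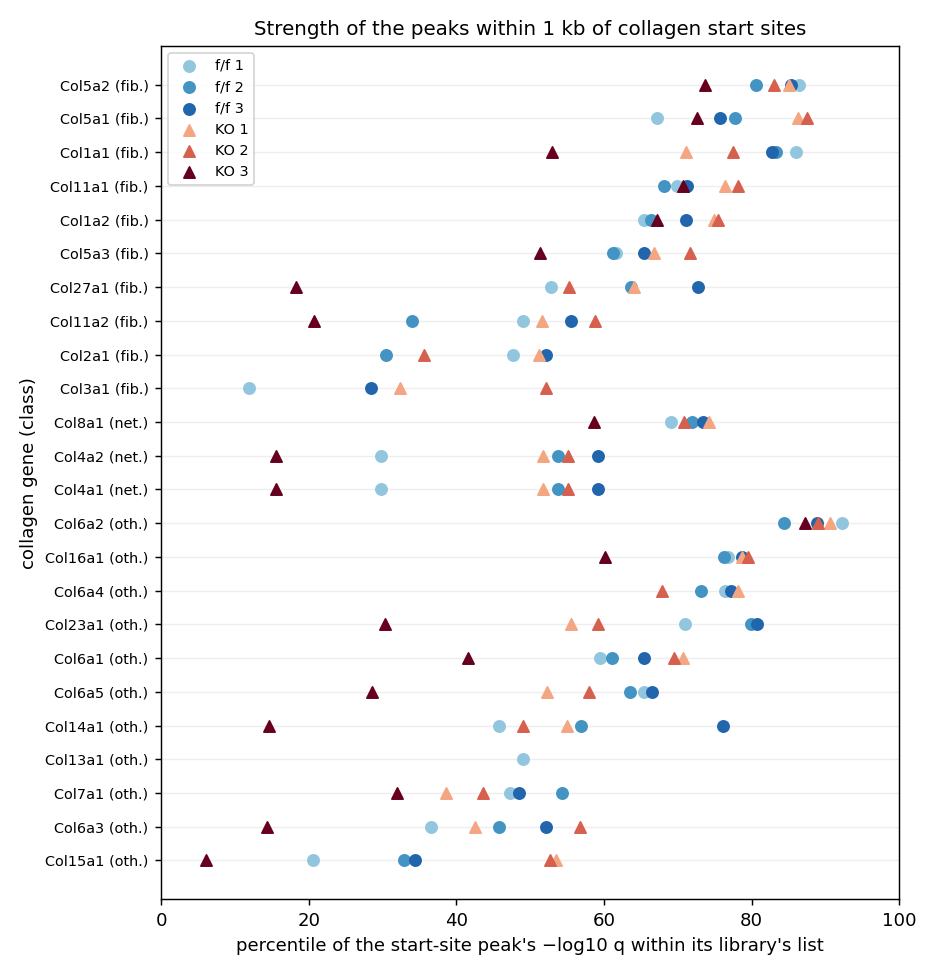
Percentile of the start-site peak's −log10 q within its library's list (x axis, 100 the highest) for the 24 collagen genes with such a peak in at least 1 library (rows, by class), f/f as circles and KO as triangles. Fibrillar genes such as Col5a2 and Col5a1 stand high in all lists, KO replicate 3 lies to the left at most genes, and Col3a1 and Col13a1 lack some libraries. Col1a1, Col2a1, Col5a2 and Col14a1 were read at either gene end, so their peaks may not lie at the start.

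The 32 genes whose products modify, fold, cleave or crosslink collagen had 231 regions. Of these, 115 (49.8%) were in all 6 libraries, against 33.4% of all regions. A start-site peak was in all 6 libraries at 27 of the 32 genes and in none at 3. Over protein-coding genes the peak was in all 6 at 53.6% of those with a known start. It was in all 6 at 49.9% of those read at either end. Only in f/f were 6 regions (2.60%) and only in KO was 1 (0.433%), near the 3.75% and 0.179% of all regions. P3h2, a prolyl 3-hydroxylase with 17 regions, held 4 of the 6 f/f-only regions, all within chr16:25967124-26024390. Whether the chromosome around P3h2 shows the same was not tested. Mia3, which helps to export procollagen, and Bmp1, which cleaves its C-terminal propeptide, held 1 each. The KO-only region was also at Bmp1 (chr14:70473695-70474711), with folds of 3.75, 4.28 and 3.59 in KO. The 7 group-specific regions became 11 without f/f replicate 1, 15 without f/f replicate 2, 12 without KO replicate 1 and 11 without KO replicate 2, while the f/f-only share of all regions rose to 6.13%, 6.09%, 5.49% and 6.01%.

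Of the 115 regions fitted, 2 passed the threshold (1.74%, both directions together), 1 higher and 1 lower in KO. Among all 29849 fitted regions 983 passed, made up of 1.80% higher and 1.49% lower, so the joint share at the processing genes was the smaller. The higher one was in the flank of P4hb, a subunit of prolyl 4-hydroxylase, with folds of 7.57, 5.78 and 6.2 in f/f and 12.6, 11.3 and 7.5 in KO (log2 difference 0.68, SE 0.13, adjusted p = 0.0263 by limma). The lower one was in the flank of Lox, the lysyl oxidase that crosslinks collagen, with folds of 11.7, 11.6 and 10.5 in f/f and 7.39, 8.78 and 4.06 in KO (log2 difference -0.79, SE 0.14, adjusted p = 0.0224 by limma). At P4hb, KO replicate 3 lay below f/f replicate 1, and at Lox every KO value lay below every f/f value. Over all fitted regions limma called 983, but 0 without f/f replicate 1 and 1 without either of the other f/f libraries, so both calls were lost without f/f replicate 1.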

How the data were processed

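The members and gene lists were chosen with earlier results of these data known. ATAC-seq was analysed from 1 peak list per library, 3 of each group. According to the methods and the submitters' processing notes, the authors trimmed the reads, aligned them to mm10 with BWA and ran MACS2 2.1.2 with a q-value threshold of 0.05. That peaks were called library by library is read from the separate lists. The deposited columns are a score for browsers, the fold (ratio) over background at the summit, and −log10 of the p-value and of the q-value. Treatment of duplicate reads is not given in the sources used here. Read counts were not analysed here, so depth gives no interval.

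Peaks were merged where they shared 1 bp or more, and regions within 20 kb of a gene span of GRCm38.p6 (the assembly of mm10) were assigned to it. A region at genes of 2 classes counted in each. Shares and counts per library were compared by exact permutation tests, two-sided. Fold was log2 transformed, quantile normalised and tested with limma 3.58.1 (trend) with Benjamini-Hochberg adjustment at 0.05 over all regions with a peak in all 6 libraries. The standing of a peak is its percentile by −log10 q within its list.

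Genes named were those with a group-specific or limma-called region or with a region in KO replicates 1 and 2 alone, the chief fibrillar and cartilage collagens, the 3 genes of each class with most regions, and those with none. Other names were chosen after their values were seen. Further genes of the osteoblast and blood marker lists are not reported here. Alternatives were a −log10 q of 5 or more, equal numbers of peaks, an overlap of 50%, extensions of 3 and 50 kb, 2 of 3 libraries, start sites within 500 bp, −log10 q in place of fold, median centring, regions in at least 4 libraries, each library left out and a replicate block. The scripts were tested on simulated lists. Python 3.11.15, numpy 2.4.6, pandas 2.3.3, matplotlib 3.10.9 and R 4.3.3 were used.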

Additional observations from a re-analysis of the deposited data

How the results depend on the processing

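The collagen share minus the share of all regions kept its direction in all 12 alternatives, from 0.664 (a −log10 q of 5 or more) to 4.43 points (without KO replicate 3), with exact p between 0.1 and 0.8. With lists cut to equal length, the collagen share was 1.27 points higher in KO, fibrillar minus other and network minus other were -2.32 points each, the start-site count was 3.33 genes higher in KO (exact p = 0.1), 5 regions were only in f/f (2.38%, against 2.83% of all regions) and 7 only in KO (3.33%, against 2.60%). With each library left out, the difference in collagen share ranged from -19.3 to 1.16 points, fibrillar minus other from -0.246 (without f/f replicate 1) to 2.37, network minus other from 5.76 to 9.76 and the start-site difference from -1.5 to 0. The f/f-only regions then ranged from 10 to 24 (2.17% to 5.29%, against 3.82% to 6.13% of all regions). The KO-only regions ranged from 1 to 15 (0.220% to 3.26%, against 0.218% to 2.93% of all regions). Group-specific regions at the processing genes ranged from 9 to 15. With a peak in at least 2 of 3 libraries of 1 group and none in the other, 34 regions were only in f/f (7.33%, against 8.54% of all regions) and 15 only in KO (3.23%, against 2.98%), and with an extension of 3 kb there were 0 KO-only regions. The count of 5 regions called by limma was 34 with −log10 q in place of fold (of 7903 among all 29849 regions). It was 1 with regions in at least 4 libraries (of 481 among all 54207 regions). With a library left out it was 0 to 26, while the count among all fitted regions ran from 0 to 5405. All 5 kept their direction in these settings. The cause of these shifts was not tested.

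The deviations of same-numbered replicates from their group means had correlations of 0.018, -0.369 and -0.456. Between differently numbered replicates the correlations ran from -0.352 to 0.425. Deviations from a mean of 3 libraries depend on each other, so these values cannot decide whether the numbers pair the libraries. With the replicate block, 0 of 152 collagen regions were called by limma, against 68 of all 29849 fitted regions. At an unadjusted p under 0.05 by limma there were 28 collagen regions, against 4610 of all fitted regions. Without the block there were 33, against 6347 of all fitted regions. In the paired form, the share minus all regions was 3.25 points (exact sign-flip permutation test, p = 0.25, the smallest for 3 pairs), and the collagen share was -11.5 points (exact test, p = 1).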
